A study of Mus musculus with 2 samples.

Results

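Alveolar macrophages are the resident phagocytes of the air spaces. They take up and break down spent surfactant lipid, and they depend on the growth factor GM-CSF and on the lipid-sensing transcription factor PPARγ. When they meet bacteria or injured tissue they release chemokines that draw in neutrophils and monocytes. Here they were picked out of single-cell data of the whole lung by 2 transcripts, Plet1, a surface glycoprotein, and Krt79, a keratin.

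A cell barcode was counted as a member if it had at least 200 genes detected and at most 20% of its UMIs (unique molecular identifiers, the tags by which captured transcripts are counted) in mitochondrial genes. It also needed 3 or more UMIs of Plet1 and Krt79 together, at least 1 UMI of Ptprc, the CD45 gene of leukocytes, less than 5% of UMIs from Sftpc and less than 5% from S100a8 plus S100a9. The rule found 910 members among 18031 barcodes that passed the limits on genes and mitochondrial UMIs (kept barcodes). The sham library held 486 members and the library taken after hepatic ischemia-reperfusion (HIR) held 424. The members were chosen by their measured UMIs of Plet1, Krt79, Ptprc, Sftpc, S100a8 and S100a9, so the levels of these and of the genes that go with them are descriptions.

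Both libraries were made from enzyme-digested lungs of wild-type mice, per the labels. One followed a sham operation and the other was taken 6 hours after HIR, in which liver blood flow is blocked and then restored. The series is about the immune cells of the lung after HIR. Strain, age, sex and the number of animals in a library are not given in the labels. There was 1 library per group, so no difference below was tested, and library, animal and treatment cannot be told apart. All intervals are 95% intervals for counting error only.

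The sham library held 59566745 UMIs in 10719 barcodes and the HIR library 50801778 UMIs in 9499 barcodes. All 32883 features carried rat Ensembl identifiers although the labels name mouse, so symbols are rat symbols, and genes such as Ccr2 were not used here. The species of the cells is therefore uncertain, and whether they were from mouse or rat was not tested. The libraries shared 24 barcode sequences, and 1 sham and 1 HIR member carried such a sequence, in no case the same one. The members were the deep cells of both libraries, with a median of 18434 UMIs in sham and 20282 in HIR, against 3439 and 3110 in the other kept barcodes. They made up about 5% of the barcodes and held 16.5% and 18.1% of the UMIs.

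The members carried the transcripts of lipid-handling alveolar macrophages. Levels are given as CPM, the UMIs of a gene per 1000000 UMIs summed over the members of a library. Plet1 stood at 1248 CPM in sham and 1202 in HIR, against 7.70 and 14.2 in the other kept barcodes. Krt79 was at 681 and 889 CPM, with 10.8 and 12.7 elsewhere. Of the markers that did not choose the cells, Fabp4, a carrier of fatty acids, was 54.3 times as high as elsewhere in sham and 37.3 times in HIR. Gpnmb, a glycoprotein of lysosome-rich macrophages, was 59.1 and 36.1 times as high. Naaa, a lysosomal hydrolase of fatty acid amides, was 48.8 and 46.8 times as high, and Prodh2, a mitochondrial dehydrogenase, 63.3 and 62.9 times.

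The genes with the steepest ratio over all other kept barcodes had varied roles. Cidec coats lipid droplets (138 times as high in sham, 98.5 in HIR), Gpd1 makes glycerol phosphate for lipid synthesis (53.6 and 61.6 times), and Abcd2 carries very long fatty acids into peroxisomes (72.3 and 57.6 times). Pla2g2d is a secreted phospholipase (94.6 and 87.2 times), Slc39a2 a zinc importer (144 and 91.0 times) and Cela1 an elastase (102 and 103 times). Spic, a transcription factor of iron-handling macrophages, and Pparg were at 179 and 239 CPM in sham and at 255 and 216 CPM in HIR, and elsewhere at or below 6.15 CPM. Dmrtc2 and Xrcc5, a DNA repair subunit, were also among the leading genes, at 232 and 884 CPM in sham and 235 and 816 CPM in HIR.

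Of 22 alveolar macrophage markers in the feature table, 17 were above the other barcodes in each library. Their levels summed to 14354 CPM in sham and 14218 in HIR, against 2161 and 2036 elsewhere. The count and the sum include Plet1 and Krt79, which chose the cells and so were above by the rule. Some markers familiar from mouse were near or at 0. The scavenger receptor Marco had 1 UMI in the members of each library. Ear1, Fabp1 and Atp6v0d2 had 0, which by counting error allows up to 0.325 CPM in sham and 0.341 in HIR. In the other kept barcodes of both libraries Marco, Ear1 and Fabp1 were at 0 CPM too, and Atp6v0d2 at 0.213 and 0.402. Absence of these transcripts from the members therefore cannot be told apart from a failure to measure them. Siglec5, at 23.8 and 38.6 CPM, and Itgax, the CD11c gene, at 46.0 and 24.6 CPM, were low but above the rest. Markers of interstitial macrophages, which sit in the tissue around vessels and airways, summed to 179 and 111 CPM in the members and to 1814 and 1770 elsewhere, and 0 of the 11 was above the rest in either library.

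**Figure D1:**
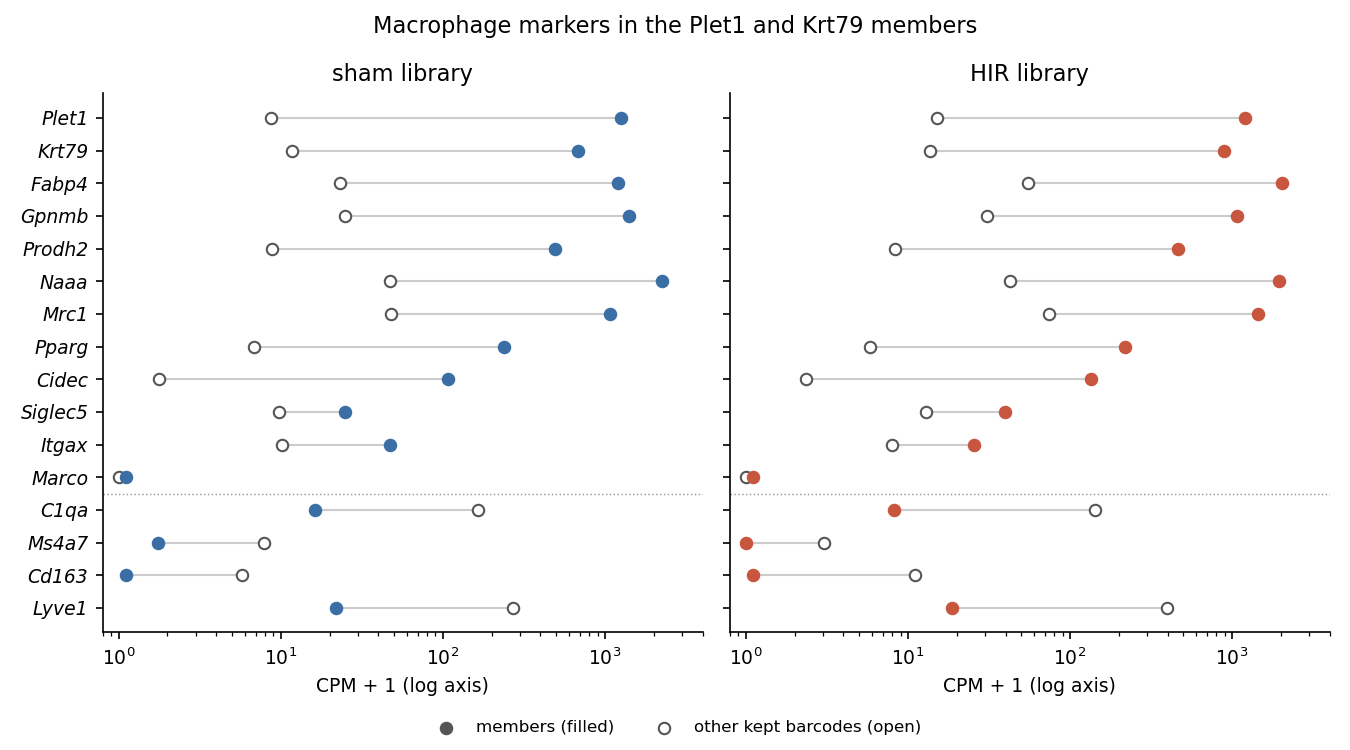
Summed level of macrophage markers in the members (filled) and in all other kept barcodes (open), as CPM plus 1 on a log axis, for the sham and the HIR library. The 6 markers from Plet1 to Naaa lie at 465 CPM or more in the members of both libraries, Marco lies near 0, and the interstitial macrophage markers below the dotted line are lower in the members than elsewhere.

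The limit of 3 UMIs fell in the tail of the distribution. The median member had 33 UMIs of the pair in sham and 40 in HIR, and the lower quartiles were 19.25 and 26.75. Exactly 3 UMIs were found in 11 members of each library, and exactly 2, just outside, in 12 sham and 8 HIR barcodes. Those just inside had 35.7 and 46.8 CPM of Fabp4 and 25967 and 27040 CPM of Cd74, the chaperone of MHC class II. Those just outside had 8.18 and 11.3 CPM of Fabp4 and 13691 and 8959 CPM of Cd74. The barcodes around the limit were thus poor in Fabp4 and rich in Cd74 on both sides of it. Krt79 was at 0 in 16 members of each library, and Plet1 in 2 sham and 0 HIR members.

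A minority of the members held RNA of another cell type. In 75 sham members (15.4%) and 63 HIR members (14.9%), a short list of genes for another lineage took up 0.2% or more of the UMIs. Fibroblast genes did so in 21 and 15 members, endothelial genes in 21 and 15, hemoglobin in 13 and 4, S100a8 and S100a9 in 3 and 13, monocyte genes in 2 and 8 and genes of T or NK cells in 2 and 4. A doublet score marked 76 of 486 sham and 54 of 424 HIR members. Over all barcodes in the files it marked 919 of 10719 in sham and 722 of 9499 in HIR, a smaller share than among the members. The 411 and 361 members without such RNA are called single-lineage members below, and the counts of genes past 2-fold are given both ways.

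Within this minority, 20 sham members (4.12%, 2.53% to 6.28%) and 15 HIR members (3.54%, 1.99% to 5.77%) had 1% or more of their UMIs in Cd74, RT1-Da, RT1-Db1 and RT1-Ba, the MHC class II genes that present antigen to T cells. They went against the label. Krt79 was at 0 in 13 and 14 of them, their median Plet1 count was 5 UMIs in each library, and their Lyz2 level was 4122 CPM over both libraries against 45006 in the other members. Krt79 was at 54.7 CPM against 802 and Prodh2 at 39.96 against 490.7. Leading genes besides MHC class II were Cst3, Clec10a and Ccl17. Such barcodes were present at close shares in both libraries, and Cd74, at 859 and 826 CPM over all members, was at 35.0 and 33.0 CPM in the single-lineage members.

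The share of alveolar macrophages among kept barcodes was nearly the same in the libraries. They made up 5.15% (4.71% to 5.61%) in sham and 4.93% (4.49% to 5.41%) in HIR, a ratio of 0.958 (0.844 to 1.09). Among kept barcodes with a Ptprc UMI they made up 15.9% and 13.5%. The share depends on how many cells of each other type were freed and captured, and with at most 10% mitochondrial UMIs allowed the ratio was 0.840 (0.722 to 0.977).

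Summed over members, expression in sham and HIR was close. The median member had 3602 genes in sham and 3780.5 in HIR, and 7.91% and 8.71% mitochondrial UMIs. Of 1401 genes that reached 100 CPM in sham or HIR and had 50 UMIs over both, 6 were at least 2-fold higher in HIR (0.428% of those compared) and 8 at least 2-fold lower (0.571%), with 10 CPM added to both values before the log2 ratio. At 1.5-fold the counts were 18 (1.28%) and 17 (1.21%). These counts follow a rule of size and are not a test.

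Of these 14 genes, 9 were no longer counted in the single-lineage members: S100a8 and S100a9 kept the ratio but stood under 100 CPM, and the other 7 were less than 2-fold apart. Most of the 9 code for products of other cells. Scgb1a1, the secretoglobin of club cells, stood at 3516 CPM in sham and 136 in HIR, and 94.9% of its sham UMIs lay in 5 members. The hemoglobin gene Hba-a1 was at 644 and 225 CPM and the collagen gene Col3a1 at 187 and 77.8. Ccl5, a chemokine of T and NK cells, was at 23.5 and 108 CPM, with 95.4% of the HIR UMIs in 5 members. The neutrophil gene S100a8 was at 35.3 and 438 CPM in the members and at 1894 and 17368 CPM in the other kept barcodes.

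In the single-lineage members the log2 ratio went from -4.60 to -0.51 for Scgb1a1, from -1.47 to -0.76 for Hba-a1, from -1.16 to -0.31 for Col3a1, from 1.82 to -0.07 for Ccl5, from 1.61 to 0.73 for Plac8 and from 3.31 to 1.80 for S100a8. These genes are in the lists that set the minority apart, so their move toward 0 is partly built in. S100a8 then stood at 19.0 and 91.2 CPM, below the 100 CPM needed to count. Markers of other lineages gave an estimate of foreign RNA of 5.82% in sham and 4.92% in HIR, and of 1.48% and 1.78% in the single-lineage members. The estimate does not separate free RNA from RNA of a second cell in the droplet, and the part of either in these differences was not tested.

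**Figure D2:**
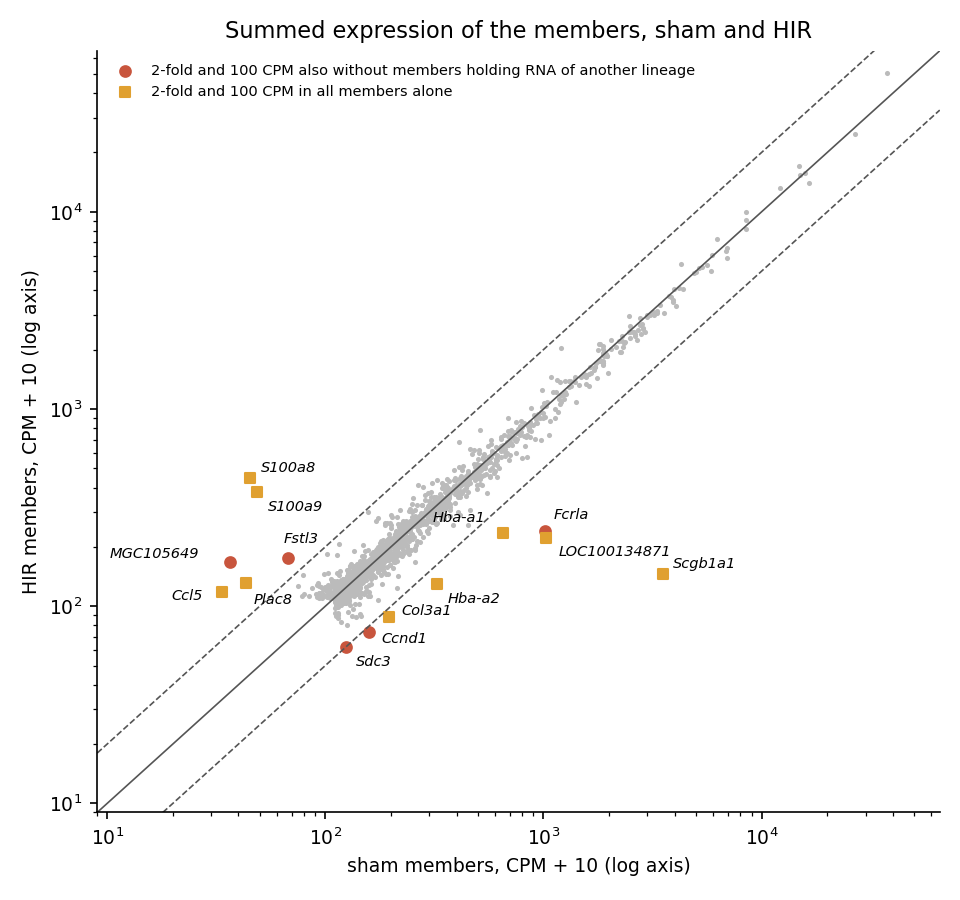
Summed level of each gene in the sham and HIR members, as CPM plus 10 on log axes, for 1401 genes. The solid line marks equal levels and the dashed lines 2-fold. The 14 genes past 2-fold are named. Round points stay past it, at 100 CPM or more, in the single-lineage members (MGC105649, Fstl3, Fcrla, Ccnd1 and Sdc3), and squares do not.

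**Figure D3:**
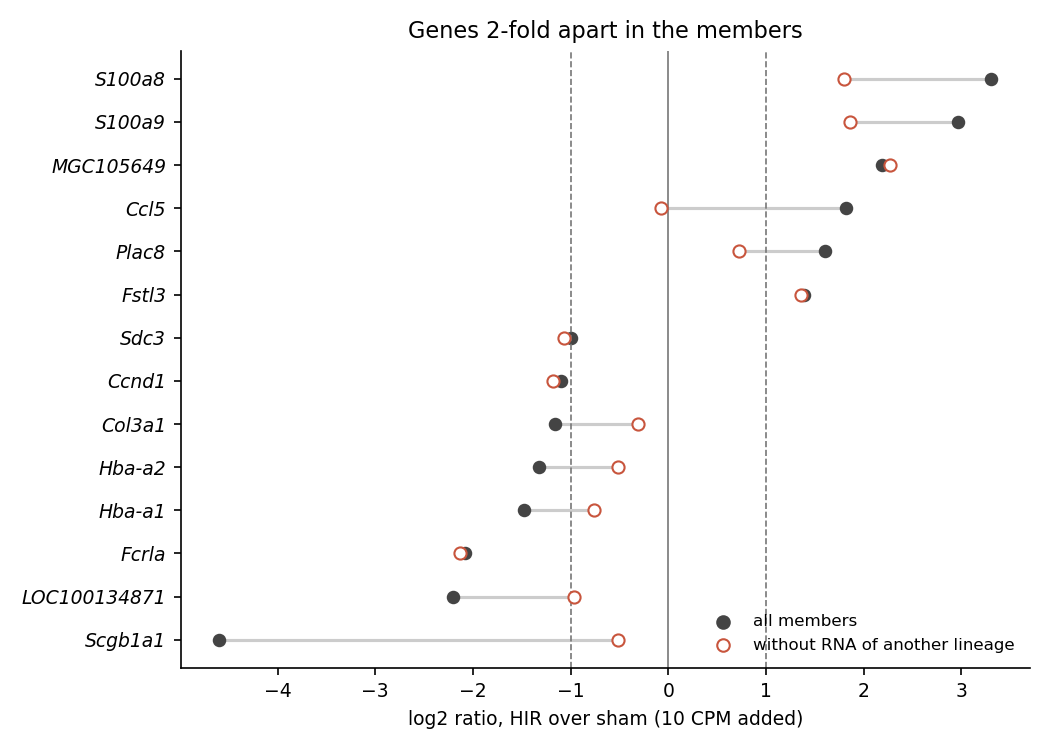
Log2 ratio of HIR over sham, with 10 CPM added, for the 14 genes past 2-fold, in all members (filled) and in members without RNA of another lineage (open). Scgb1a1 moves from -4.60 to -0.51 and Ccl5 from 1.82 to -0.07, while Fcrla stays at about -2.1 and Fstl3 at about 1.4.

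The 2 genes past 2-fold higher in HIR among the single-lineage members were MGC105649 and Fstl3, of 1404 compared (0.142%). MGC105649, which was outside the rule for named genes and was chosen after its values were seen, was at 26.6 CPM in sham and 157 in HIR, a ratio of 5.91 (5.16 to 6.80). It was also higher in the other kept barcodes, at 78.7 and 208 CPM. After each member was thinned to 12500 UMIs, which left out 97 sham and 64 HIR members, 15.2% of sham and 62.5% of HIR members had a UMI of it, against 20.6% and 68.4% before thinning. At 1000 UMIs per cell, 3.3% and 13.2% of members had one, against 1.46% and 2.78% of T and B cell barcodes.

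Fstl3, a secreted inhibitor of activins, was at 57.5 CPM in sham and 166 in HIR, a ratio of 2.89 (2.62 to 3.20). In the other kept barcodes it stood at 31.9 and 27.8 CPM. It had a UMI in 48.1% of sham and 70.3% of HIR members, and in 40.4% and 65.6% after thinning. At the depth of 1000 UMIs the shares were 4.5% and 13.4%, with 0.49% and 0.24% in T and B cell barcodes. The ranges of the members overlapped.

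The other named genes that were higher in HIR were less than 2-fold apart and had varied roles. Fabp4 was at 1199 CPM in sham and 2027 in HIR, a ratio of 1.69 (1.65 to 1.73), and in the other kept barcodes at 22.1 and 54.3 CPM. Its median was 7.34 UMIs per 10000 in sham members and 12.9 in HIR members, and the upper quartiles were 15.04 and 26.59. The members of the libraries overlapped over most of the range: 85.6% and 92.7% had a UMI, and 89.2% and 94.4% after thinning, while at 1000 UMIs the T and B cell barcodes had 0.73% and 1.21%.

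Mdh1, the cytosolic malate dehydrogenase, was at 400.4 and 671 CPM (ratio 1.68, 1.61 to 1.75), and Gpd1, with which it shares the task of moving reducing power between cytosol and mitochondria, at 190 and 282 CPM (1.48, 1.40 to 1.58). Pnpla8, a phospholipase, was 1.63-fold higher, Glrx, a glutaredoxin that reduces protein disulfides, 1.57-fold, and Abcb10, a transporter of the mitochondrial membrane, 1.66-fold. Tgm1, a transglutaminase, was at 68.9 and 133 CPM (1.94, 1.76 to 2.13), the lectin-like gene Clec2l at 105 and 198 (1.88, 1.73 to 2.03) and Apmap, a membrane protein known from fat cells, at 92.0 and 175 (1.90, 1.75 to 2.07). In the other kept barcodes Tgm1 was at 1.96 and 14.1 CPM, Abcb10 at 15.9 and 54.9 and Glrx at 70.8 and 128, so these were higher in HIR there as well.

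Further named genes were Hsbp1 (ratio 1.64), the cold-induced RNA-binding gene Rbm3 (1.54), the paraoxonase Pon2 (1.53), the kinase Stk39 (1.51) and the translation inhibitor Pdcd4 (1.45). Serpinb1a, an inhibitor of neutrophil proteases named here after its value was seen, was at 148 and 289 CPM, and in the other kept barcodes, which held the neutrophils, at 61.0 and 704 CPM. Mrc1, the mannose receptor, was at 1068 CPM in sham and 1445 in HIR (1.35, 1.32 to 1.39). In the other kept barcodes together it was at 46.7 and 72.8 CPM. It was not particular to the members: barcodes with 3 or more UMIs of C1qa, C1qb and C1qc had 833 and 1347 CPM. Lyz2, lysozyme and the most abundant of the named genes, was at 37697 and 50474 CPM (1.34, 1.33 to 1.34).

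**Figure D4:**
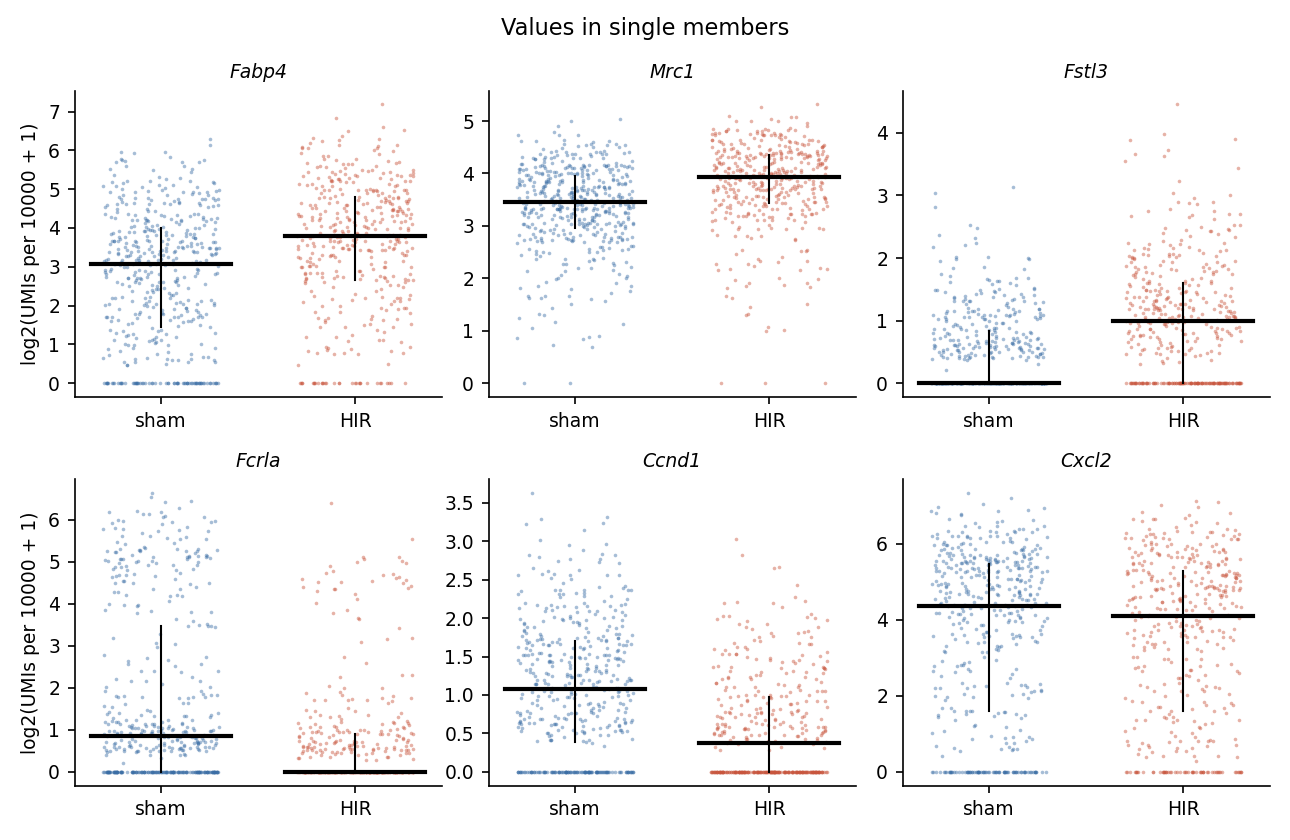
Values of 6 genes in single members, as log2 of UMIs per 10000 plus 1, for 486 sham and 424 HIR members. Each point is a member, the thick line is the median and the thin line runs between the quartiles. Fabp4, Mrc1 and Fstl3 lie higher in HIR with overlapping ranges, Ccnd1 lies lower, Fcrla has a separate upper group that is smaller in HIR, and Cxcl2 spans a similar range in both.

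The gene with the lowest HIR level relative to sham among the single-lineage members was Fcrla, an intracellular Fc receptor-like protein best known from B cells. It was at 1009 CPM in sham and 230 in HIR, 4.39-fold lower in HIR (4.18 to 4.60), and 4.51-fold lower in the single-lineage members. It did not shift in all members alike. In sham its lower quartile was 0, its median 0.80, its upper quartile 10.1 and its 90th percentile 36.8 UMIs per 10000, and in HIR the last 3 were 0, 0.86 and 3.57.

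The plot of single members shows 2 levels of Fcrla, with few members between them. Fcrla stood at 10 or more UMIs per 10000 in 123 sham members (25.3%, 21.5% to 29.4%) and in 34 HIR members (8.02%, 5.62% to 11.03%), a level chosen after the values were seen. Another 27 sham and 10 HIR members lay from 3 to under 10, 176 and 150 lay above 0 but under 3, and 160 and 230 had no UMI of Fcrla. Among the single-lineage members 28.2% of sham and 9.14% of HIR members were in the upper group. Members with high Fcrla had a median of 18700 UMIs in sham and 18801.5 in HIR, against 18434 and 20282 over all members.

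B cells carry Fcrla too, at 356 CPM in sham and 358 in HIR in barcodes with 3 or more UMIs of Cd79a and Cd79b, and 14.8% and 11.7% of those barcodes reached 10 per 10000. A list of B cell genes took up 0.2% of the UMIs in 0 of 486 sham and 0 of 424 HIR members, with upper interval bounds of 0.756% and 0.866%. This check could miss a B cell that shared a droplet with a member. The B cell barcodes had a median of only 2387 UMIs in sham and 2628 in HIR, against 18434 and 20282 in members. The B cell genes of such a droplet could therefore stay under 0.2%. Members with 10 or more UMIs of Fcrla per 10000 had 3755 CPM of it in sham and 2494 in HIR, against 356 and 358 in the B cell barcodes. The part of B cell RNA in the members' Fcrla was not tested. T cell barcodes had 59.4 and 49.0 CPM of Fcrla, and 1 in each library reached 10 per 10000. After thinning to 12500 UMIs, 62.5% of sham and 36.4% of HIR members had a UMI of Fcrla, against 67.1% and 45.8% before. At 1000 UMIs the shares were 30.2% and 12.03%, and in T and B cell barcodes, which include the B cells that carry it, 22.5% and 20.8%. Barcodes that met every other limit but had over 20% mitochondrial UMIs, and so were not members, had 537 CPM in sham (82 barcodes) and 142 in HIR (68).

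The 3 genes past 2-fold lower in the single-lineage members (0.214% of those compared) were Fcrla, Ccnd1 and Sdc3. Ccnd1, cyclin D1, which drives entry into the cell cycle, was at 148 CPM in sham and 63.9 in HIR, 2.32-fold lower (2.10 to 2.56). It had a UMI in 75.5% and 51.9% of members, and in 70.7% and 42.8% after thinning. In the other kept barcodes it was at 153 and 108 CPM. Sdc3, a heparan sulfate proteoglycan, was at 114 and 52.1 CPM, 2.19-fold lower (1.96 to 2.45).

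Other named genes were lower at smaller ratios. Lgmn, a lysosomal protease, was at 440.4 and 248 CPM (1.78-fold lower, 1.69 to 1.87) and was found in 96.1% and 85.0% of thinned members. Creg1, a glycoprotein of the lysosome, was at 205 and 132 CPM. Hmox1, heme oxygenase, was at 374 and 248 CPM, and 18.0% of its sham UMIs came from 5 members. Sod2, the mitochondrial superoxide dismutase and an NF-κB target, was at 827 and 564 CPM, while in the other kept barcodes it was at 212 and 1178. The lists these genes belong to were not lower as a whole: of 11 genes of iron and heme handling 7 were higher and 4 lower (median 0.15), and of 21 genes of NRF2 and oxidant defence 11 were higher and 10 lower (median 0.00).

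The growth factor Igf1 was at 969 and 689 CPM (1.41-fold lower, 1.36 to 1.45), and its median per member was 9.33 and 6.57 UMIs per 10000. Lcp1, the actin bundler of leukocytes, was at 1045 and 733 CPM and Lmna, the nuclear lamin, at 786 and 552. Tbxas1, which makes thromboxane, was at 117 and 83.4 CPM. Popdc2, Rexo2, Upp1, Hebp1 and Phyhd1 completed the named genes, at between 1.37-fold and 1.66-fold lower.

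Gene lists were described by the members of each with at least 20 CPM in either library. Of all 4939 such genes, 2760 were higher in HIR and 2179 lower, with a median log2 ratio of 0.02, and 14 (0.283%) and 17 (0.344%) were past 2-fold. Of 15 genes of alveolar macrophage identity, 5 were higher and 10 lower, with a median of -0.08, and 0 was past 2-fold. Naaa was at 2240.0 and 1943 CPM, Gpnmb at 1404 and 1076, Prodh2 at 492 and 465, and Fabp5 at 362 and 296. Of 18 transcription factors and growth factor receptors of macrophages, 4 were higher and 14 lower (median -0.12). Csf2ra, a GM-CSF receptor chain, was at 328 and 299 CPM.

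Of 25 genes of fatty acid uptake and use, 18 were higher and 7 lower in HIR (median 0.13), led by Fabp4, with the enoyl-CoA isomerase Ech1 at 461 and 579 CPM and the β-oxidation subunit Hadhb at 140 and 170. Of 11 genes of cholesterol synthesis and uptake, 1 was higher and 10 lower (median -0.28): Fdps, a synthase of isoprenoid precursors, was at 124 and 86.4 CPM, and Sqle, squalene epoxidase, at 23.1 and 14.7. Of 10 genes of cholesterol efflux and storage, 4 were higher and 6 lower (median -0.01). Of 35 genes of the respiratory chain, 30 were higher and 5 lower (median 0.11), each by less than 1.5-fold, and Ndufa4 went the other way, at 687 and 541 CPM. Of 29 lysosomal genes, 14 were higher and 15 lower.

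Inflammatory genes were well detected in both libraries, and most of those listed were not higher in HIR. Of 11 chemokines, 3 were higher and 8 lower (median -0.07). Cxcl2, which draws neutrophils, was at 2864 and 2544 CPM, Cxcl1 at 584 and 518, Ccl3 at 1540.3 and 1470 and Ccl6 at 4982 and 4945. Cxcl3 was at 65.6 and 14.0 CPM and Ccl2, which draws monocytes, at 134 and 81.7, while in the other kept barcodes Cxcl3 stood at 169 and 395 CPM. Ccl4, at 147 and 184 CPM, was the higher exception besides Ccl5 and Ccl9.

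Of 12 cytokines and their antagonists, 1 was higher and 11 lower (median -0.27). Il1b was at 524 and 510 CPM and Il18 at 693 and 572. Tnf had a UMI in 15.4% and 14.6% of members. Of 15 NF-κB targets and feedback genes, 5 were higher and 10 lower (median -0.05), among them Nfkbia, the inhibitor that NF-κB itself induces, at 848 and 793 CPM, Bcl2a1 at 1605 and 1293 and Irf1 at 93.4 and 119. Of 10 type I interferon response genes, 5 were higher and 5 lower. The NF-κB and chemokine medians were close to 0 and changed sign in 1 of 19 other settings each.

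All 12 heat shock genes were lower in HIR (median -0.16), with Hspa8 at 1974 and 1519 CPM, and of 18 genes of endoplasmic reticulum stress 13 were lower (median -0.13), with Calr at 503 and 407 and Hsp90b1 at 246 and 183. In the single-lineage members 1 of 12 heat shock genes was higher. Of 21 glucocorticoid response genes, 15 were higher and 6 lower (median 0.07), and of 19 measured in the single-lineage members 11 were higher and 8 lower (median 0.11). Among them were Dusp1 at 973 and 1236 CPM, Txnip at 398 and 500 and Fkbp5 at 28.5 and 44.0. Of 14 FOXO and growth brake genes, 13 were higher and 1 lower (median 0.18), among them Btg1 at 296 and 371 CPM. Digestion of the tissue also induces immediate early genes, and of 20 of these 11 were higher and 9 lower (median 0.03), with Fos at 451 and 616 CPM and Egr1 at 361 and 278.

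Proliferating members were found in both libraries. With 5 or more UMIs of Mki67, Top2a, Cdk1, Ccnb1, Birc5 and Ube2c as the sign, a threshold chosen after the values were seen, 49 sham members (10.1%, 7.55% to 13.1%) and 52 HIR members (12.3%, 9.30% to 15.8%) were cycling. Their median depth was 28880 and 25612.5 UMIs, above that of all members, so the count also depends on depth. Of 21 cell cycle genes, 6 were higher and 15 lower (median -0.14), with Ccnd1 the lowest, Ube2c at 143 and 109 CPM and Cenpf at 72.2 and 48.2. In the single-lineage members the median was -0.04.

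Members of 1 library differed widely in Cxcl2. Cxcl2 ranged from 0 to 161 UMIs per 10000 in sham and to 139 in HIR, with medians of 19.7 and 16.0. Over single-lineage members thinned to 12500 UMIs (340 in sham and 310 in HIR), Cxcl2 and Nfkbia varied together, with a Spearman rho of 0.75 in sham and 0.68 in HIR. For Cxcl2 and Il1b rho was 0.49 and 0.51, and for Cxcl2 and Cxcl1 0.47 and 0.42. A second pair was Gpnmb and Fabp5, at 0.47 and 0.50. The pairs above had the largest rho of those computed. For Ccl3 and Cxcl2 rho was only 0.21 and 0.11, and for Ccl3 and Ccl4 0.24 and 0.25. Plet1 and Krt79, whose summed UMIs chose the cells, had -0.11 and -0.13. These are descriptions over cells of 1 library each.

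The members were set beside 2 other groups of leukocytes from the same libraries. One was 167 sham and 127 HIR barcodes with 3 or more UMIs of C1qa, C1qb and C1qc, complement genes of tissue macrophages. These C1q barcodes were shallower than the members, with medians of 7948 and 8769 UMIs. They were not filtered for RNA of another lineage, and their foreign RNA was not estimated. The other was 108 and 345 barcodes with 3 or more UMIs of Vcan and F13a1, genes of classical monocytes. Its number differed between libraries, so its makeup may differ too, which was not tested. In all kept barcodes outside the members, F13a1 was at 4.93 and 3.24 CPM and Vcan at 35.7 and 214 CPM. The group was thus chosen mostly by Vcan, a gene whose own level differed between the libraries. Over 1072 genes measured in both, 10 of the members' genes (0.933%) and 9 of those in C1q barcodes (0.84%) were past 2-fold. In the single-lineage members it was 3 of the 1072 (0.280%). The median size of the log2 ratio was 0.10 in the members and 0.14 in the C1q barcodes, and 0.12 in the members after their UMIs were thinned to the same totals. Over 1078 genes measured in both, 9 (0.835%) were past 2-fold in the members and 81 (7.51%) in the Vcan and F13a1 barcodes, with 3 (0.278%) in the single-lineage members.

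The NF-κB and chemokine medians lay on opposite sides of 0 in the members and the C1q barcodes. Among 14 NF-κB genes measured in both, 5 were higher in HIR in the members (median -0.05) and 13 in the C1q barcodes (0.34). Among 10 chemokines the counts were 2 and 10 (medians -0.10 and 0.44), and among 16 endoplasmic reticulum stress genes 3 and 15 (-0.14 and 0.19). For 35 respiratory chain genes the order was the reverse, with 30 and 4 higher (0.11 and -0.08). In the Vcan and F13a1 barcodes the medians of the NF-κB, chemokine and stress lists were 0.80, 0.95 and 1.07. These differences were not tested, for lack of replicate libraries.

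Nfkbia was 0.935 times as high in HIR as in sham in the members and 1.40 times in the C1q barcodes, so that the members' ratio was 0.667 of the other (0.623 to 0.714). For Sod2 the ratios were 0.682 and 2.14 (0.319, 0.288 to 0.354) and for Hmox1 0.663 and 2.03 (0.326, 0.274 to 0.389). For Ccl4 they were 1.25 and 3.31 (0.377, 0.320 to 0.445). The intervals do not cover foreign RNA, and its part in these ratios was not tested. The larger ratio of Mrc1 was in the C1q barcodes, at 1.35 and 1.62. Fcrla stood at 18.0 and 21.2 CPM in the C1q barcodes, a ratio of 1.17 (0.657 to 2.09) against 0.228 in the members, and Mdh1 had a ratio of 0.981 (0.799 to 1.20) there against 1.68.

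**Figure D5:**
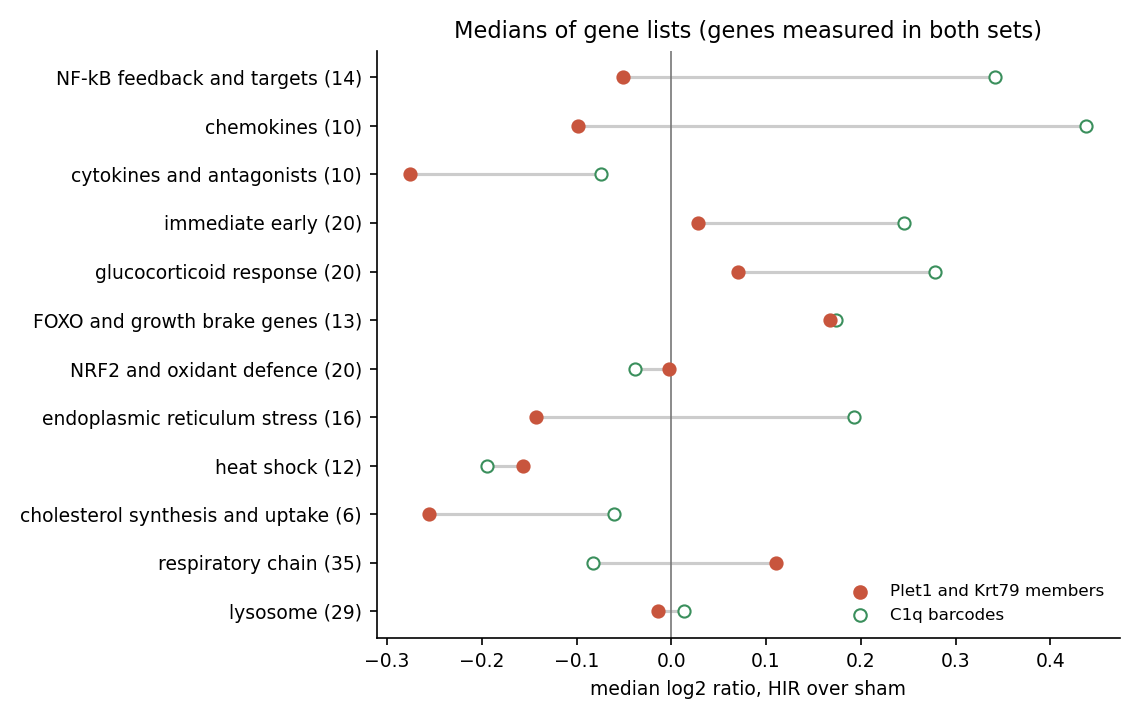
Median log2 ratio of HIR over sham for 12 gene lists, in the members (filled) and in the C1q barcodes (open), over genes with at least 20 CPM in both sets, whose number is in parentheses. The NF-κB, chemokine and endoplasmic reticulum stress medians lie below 0 in the members and above 0 in the C1q barcodes, and the respiratory chain lies the other way round.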

How the data were processed

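Single-cell RNA-seq (10x Genomics) was measured in 1 sham and 1 HIR lung library. The deposited matrices hold raw UMI counts per gene and barcode; the file header names cellranger 5.0.0, while the submitters' processing notes name Cell Ranger 6.0, STAR, Seurat 4.0 and mm10. The features carry rat identifiers, so no coordinates or sequences are given. No per-sample column was left unused.

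UMI counts were summed over members and scaled to CPM with Python 3.11.15, numpy 2.4.6, scipy 1.17.1, pandas 2.3.3, scanpy 1.11.5 (Scrublet, at 0.8% doublets per 1000 barcodes; scored barcodes were kept and left out in an alternative) and matplotlib 3.10.9. Ratios of levels have exact conditional binomial intervals, shares have Clopper-Pearson intervals, and the ratio of shares and the ratios between cell groups have intervals from a normal approximation on the log scale, all at 95%. Foreign RNA was estimated from markers of other lineages, which does not separate free RNA from doublets. The ratios of levels and their intervals were tested on simulated summed counts with no variation between cells. That test cannot show how the intervals hold for genes whose UMIs are clumped in few members. With 1 library per group no test was run.

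Named genes were the given markers, the 15 with the largest ratio in each direction (100 CPM in either library, 50 UMIs over both, counting interval without 1, at least the level of the other barcodes in the library where it was higher, and no mitochondrial, ribosomal, hemoglobin, sex-linked, immune receptor or other-lineage genes), the 15 most specific, and up to 4 per list. Cxcl3, like MGC105649 and Serpinb1a, was named after its values were seen. The members and lists were chosen with earlier results of these data known. Vcan and F13a1 stand for monocytes because Ccr2 was not in the feature table.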

Additional observations from a re-analysis of the deposited data

How the results depend on the processing

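The number of genes at least 2-fold higher in HIR (6) was 18 at 1.5-fold, 2 with a minimum of 200 CPM, 2 with the estimated foreign (free) RNA subtracted, 16 with no CPM minimum and 20 UMIs, and 2 without members that held RNA of another lineage. The number at least 2-fold lower (8) was 17, 5, 3, 21 and 3 in those settings, and 5 with 50 CPM added, 5 with the mean of CPM per member and 5 without likely doublets. The ratio of the members' share was 0.840 with a mitochondrial limit of 10%. Apart from settings that change the threshold or the barcodes by construction, the cause was not tested. The 33 named genes tried kept their direction in all 18 settings, and 524 of 594 values moved by less than their spread. Most of these genes were picked for their large ratios in these same libraries, so a kept direction was likely beforehand. Ccnd1 and MGC105649 were not among the genes tried. Of 33 list medians, 21 kept their sign over 19 settings, while NF-κB targets ran from -0.14 to 0.01, chemokines from -0.11 to 0.01 and the cell cycle from -0.22 to 0.36. The settings that removed other-lineage RNA, or required both Plet1 and Krt79, were chosen after seeing the data. No paired analysis was possible because the groups share only 1 replicate number, and with 1 library per group none can be left out.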

Other observations

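Barcodes with 3 or more UMIs of Plet1 and Krt79 that were left out only for over 20% mitochondrial UMIs numbered 82 in sham and 68 in HIR. Their median depth was 6209.5 and 6559.5 UMIs. They had the markers of the members, with Naaa at 1713 and 1443 CPM, Gpnmb at 1044 and 906 and Prodh2 at 665 and 499.9 CPM. Fabp4 was at 574 CPM in sham and 874 in HIR, Mrc1 at 709 and 1025 and Fstl3 at 103 and 232. Fcrla reached 10 UMIs per 10000 in 13 (15.9%) and 3 (4.41%) of them. These barcodes took no part in choosing the members or the genes, but they come from the same 2 libraries.

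Barcodes left out only for lacking a Ptprc UMI numbered 28 and 22. Their Fabp4 level was 368 CPM in sham and 1058 in HIR, and their Fcrla level 46.3 and 4.94 CPM. The sham and HIR sets were not alike in macrophage markers. Plet1 was at 245 CPM in sham and 737 in HIR, Krt79 at 324 and 653 and Mrc1 at 132 and 752. Naaa was at 430 and 885 CPM and Prodh2 at 156 and 410, while Gpnmb was at 460 and 420. These barcodes therefore cannot show whether like cells differed in Fabp4 or Fcrla.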
